A study of Homo sapiens with 7 samples.

Results

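The microRNAs described here are made from hairpins that lie inside the HOX gene clusters: miR-10a, miR-10b, miR-196a and miR-196b. They were taken by mature name from a table of small RNA captured with an mRNA. Of 6 names sought, 5 were present among the 480 mature names, namely hsa-miR-10a-5p, hsa-miR-10a-3p, hsa-miR-10b-5p, hsa-miR-196a-5p and hsa-miR-196b-5p (human, prefix left out from here on), while miR-10b-3p was not analysed here. The choice goes by name alone, and where a name had several rows, 1 per hairpin, the row with the highest level was used. The captures came from A375, a human melanoma cell line. Cells were collected 24 h after plating and fixed with 1% formaldehyde for 10 min before miR-CATCHv2.0, a method in which biotinylated probes pull down a chosen mRNA and the microRNAs held on it are sequenced. The chosen mRNA was BRAF-X1, a transcript form of the kinase gene BRAF, caught by its 3′ UTR. ODD probes were used for 3 captures, EVEN probes for 3 more, and scrambled probes, the control, for 1, all from the same line, with no other genotype or agent in the labels. ODD and EVEN together are called X1 probes. The captures are given as independent, but not whether they came from separate cultures, so the p-values measure the spread between captures, which may be technical.

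HOX genes encode transcription factors that set position along the body axis, and each HOX cluster also carries microRNA genes among its coding genes. miR-10 and miR-196 pair through bases 2 to 8 of the mature strand, the seed, with target mRNAs, among which are HOX mRNAs themselves; miR-196 is known for cutting the HOXB8 mRNA. miR-10b is best known from work on tumour cell invasion, and miR-196a has been described as low in melanoma cells relative to melanocytes, with HOXB7 and HOXC8 as targets.

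The mature sequences are shown because the seed is what groups these microRNAs and because near-identical members can exchange reads. They are from RefSeq (GRCh38.p14), 5′ to 3′, with the seed in capitals. A mature sequence was found for 4 of the 5 members, and miR-10b-5p is named only. miR-100-5p and let-7a-5p are added as the most abundant sequence relatives of miR-10 and of miR-196.
miR-10a-5p: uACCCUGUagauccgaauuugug
miR-100-5p: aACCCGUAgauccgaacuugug
miR-196a-5p: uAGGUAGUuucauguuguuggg
miR-196b-5p: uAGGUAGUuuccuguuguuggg
let-7a-5p: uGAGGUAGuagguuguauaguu
miR-196a-5p and miR-196b-5p share their seed and differ by A12C, the base of miR-196a-5p first and positions counted from the 5′ end. No other name among the 406 with a mature sequence had the miR-196 seed. miR-10a-5p and miR-100-5p share a run of 11 bases, GUAGAUCCGAA, at positions 7 to 17 of miR-10a-5p and 6 to 16 of miR-100-5p, so the run is the same but the seeds are not. miR-196a-5p and let-7a-5p share AGGUAGU, the whole miR-196 seed, which begins at base 3 in let-7a-5p.

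By position, MIR10A lies at chr17:48579838-48579947 on the minus strand, inside the span of HOXB3 and between HOXB4, 1488 bases away, and HOXB5. MIR10B lies at chr2:176150303-176150412 on the plus strand, 1138 bases from HOXD4. miR-196a-5p is made from 2 hairpins. MIR196A1, at chr17:48632490-48632559 on the minus strand, lies between HOXB9 and HOXB13, and MIR196A2, at chr12:53991738-53991847 on the plus strand, lies between HOXC10, 1459 bases away, and HOXC9. MIR196B lies at chr7:27169480-27169563 on the minus strand, between HOXA9 and HOXA10. The gene table gives spans only, so exon or intron was not read from it.

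The values are RPM, reads per 1000000 of each library's microRNA total, and the whole numbers of reads behind them could be recovered. Summed over all hairpin rows, depth was 4049 to 35508 reads per X1-probe library and 4647 reads in the scrambled library. There, 1 read is worth 215 RPM. Names with several hairpins enter these totals once per row. With 1 row per mature name the totals were 3046 to 25679 reads with X1 probes and 3479 reads with scrambled probes. RPM and the exact intervals on it use the totals over all rows. ODD capture 3 and EVEN capture 3 are of similar low depth (4049 and 4767 reads) and carry the same number, 12, in their descriptions as the scrambled library. Of the melanocyte and melanoma markers, 5 of 7 were measured, and their summed level was 29811 to 40751 RPM with X1 probes and 37874 RPM with scrambled probes. The highest of them by mean with X1 probes were miR-222-3p (17169 RPM), miR-221-3p (9132 RPM) and miR-146a-5p (5119 RPM). With scrambled probes these had 23241, 9038 and 4519 RPM. The mean of miR-204-5p was 2286 RPM with X1 probes, against 861 RPM with scrambled probes. That of miR-509-3p was 71.4 RPM, against 215 RPM. miR-211-5p and miR-514a-3p were not analysed here. The summed levels of blood, epithelial, muscle and endothelial markers were 0 to 741 RPM with X1 probes and 0 to 646 RPM with scrambled probes, and those of the neuronal markers were 92.4 to 494 RPM with X1 probes and 1291 RPM with scrambled probes.

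miR-10a-5p was the most abundant of these microRNAs. ODD captures 1 to 3 held 149, 553 and 58 reads of it, which is 13768, 15574 and 14325 RPM. EVEN captures 1 to 3 held 131, 205 and 100 reads, or 14098, 14146 and 20978 RPM. The scrambled library had 105 reads, or 22595 RPM. All 6 X1-probe values lay below the scrambled value, and EVEN capture 3 stood closest to it. Its rank within a library ran from 9 to 14 with X1 probes and was 10 with scrambled probes.

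miR-10b-5p, from the HOXD cluster, came next. It had 10072, 11519 and 12349 RPM in ODD captures 1 to 3, from 109, 409 and 50 reads. EVEN captures 1 to 3 had 11300, 11317 and 9230 RPM, from 105, 164 and 44 reads. The scrambled library had 14203 RPM, from 66 reads, again above all 6 X1-probe libraries. EVEN capture 3, the highest X1-probe library for miR-10a-5p, was the lowest for miR-10b-5p.

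miR-196a-5p was far less abundant. Through its higher row, that of the hairpin hsa-mir-196a-2, ODD captures 1 to 3 held 8, 44 and 3 reads, or 739, 1239 and 741 RPM. EVEN captures 1 to 3 held 11, 17 and 6 reads, or 1184, 1173 and 1259 RPM, and the scrambled library held 4 reads, or 861 RPM. The scrambled value lay inside the ODD range and below all EVEN values. Averaged over the 7 libraries it ranked 67th of the 480 names, against 11th for miR-10a-5p and 17th for miR-10b-5p.

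miR-196b-5p and the 3′ arms were near the limit of detection. miR-196b-5p, from the HOXA cluster, was read 0, 1 and 2 times in ODD captures 1 to 3, 0, 2 and 1 times in EVEN captures 1 to 3, and never in the scrambled library. That count of 0 allows up to 646 RPM by a limit of 3 reads of the library, above the X1-probe mean of 145 ± 191 RPM (SD, n = 6). The exact two-sided 95% interval used for the other values reaches higher, to 794 RPM. No ratio of RPM is therefore given, and the fitted differences of miR-196b-5p from scrambled probes below depend on the pseudocount. miR-10a-3p, the other strand of the miR-10a hairpin, had 1 read in each of EVEN captures 1 and 3 and none elsewhere. Its share of the reads of both arms was 0.167% with X1 probes (2 of 1198 reads, exact Clopper-Pearson 95% interval 0.0202% to 0.602%), so the 5′ arm made up nearly all of miR-10a.

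**Figure D1:**
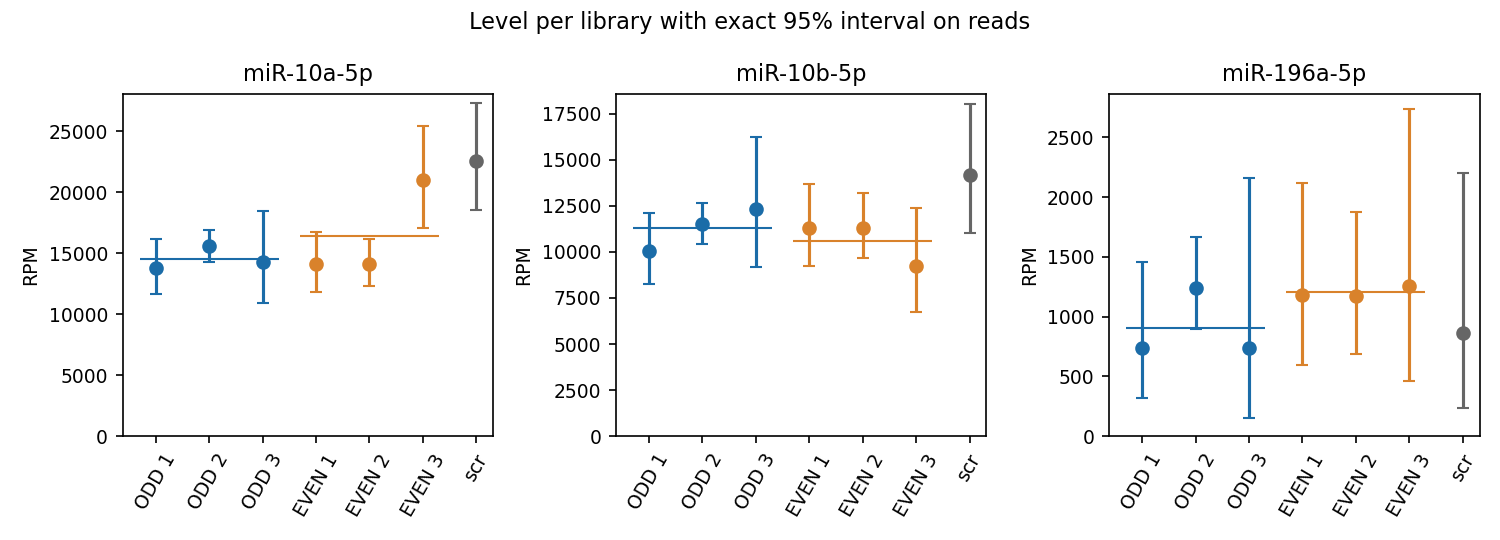
RPM of miR-10a-5p, miR-10b-5p and miR-196a-5p in each ODD, EVEN and scrambled (scr) library; points are libraries, bars exact 95% intervals on reads and horizontal lines the means of ODD and EVEN. The scrambled library is the highest for both miR-10 members (22595 and 14203 RPM), and the intervals of miR-196a-5p are wide because it had 3 to 44 reads.

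The first comparison sets X1 probes against scrambled probes, the contrast that a search for microRNAs held on BRAF-X1 turns on. A microRNA was tested where it had at least 10 RPM in at least 3 libraries, which left out miR-10a-3p, and passed at an adjusted p under 0.05. Since 1 read is worth 28.2 to 247 RPM, the filter asks for at least 1 read in at least 3 libraries. miR-196b-5p met it through X1-probe libraries alone, so its main fitted difference from scrambled probes could only be positive. Of the 4 tested members 0 passed, where 0.826% of all 242 tested microRNAs did, and 0 had an unadjusted limma p under 0.05, where 8.68% did. Without EVEN capture 3, miR-10a-5p had an unadjusted limma p of 0.0272 (adjusted p = 0.218). miR-10a-5p averaged 15481 ± 2764 RPM across the 6 X1-probe libraries (SD), against 22595 RPM with scrambled probes. Its difference on the log2(RPM + 10) scale was -0.56 (95% interval -1.19 to 0.06, SE 0.31, adjusted p = 0.668 by limma), lower in 6 of 6 libraries. By counting error alone, the exact 95% intervals of 5 of the 6 X1-probe libraries lay entirely below that of the scrambled library, which was 18517 to 27288 RPM, and EVEN capture 3 overlapped it. How many other microRNAs had their intervals apart in this way was not counted. The scrambled group holds 1 library, so an exact permutation test over libraries cannot go below p = 0.143, the value miR-10a-5p and miR-10b-5p both had. Of all tested microRNAs, 22.7% had all 6 X1-probe libraries below the scrambled library, as miR-10a-5p and miR-10b-5p did, and 11.2% had all 6 above it, as no member did. Among the 96 tested microRNAs with a mean of at least 500 RPM, 23 had all 6 below it and 16 all 6 above it. RPM is a share of a library, so it does not give the amount of a microRNA in a capture.

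miR-10b-5p averaged 10964 ± 1119 RPM across the 6 X1-probe libraries (SD), against 14203 RPM with scrambled probes. On the log2 scale it differed by -0.38 (95% interval -1.02 to 0.26, SE 0.31, adjusted p = 0.673 by limma), lower in 6 of 6 libraries, and all 6 counting intervals overlapped that of the scrambled library. miR-196a-5p averaged 1056 ± 247 RPM with X1 probes and 861 RPM with scrambled probes. Its log2 difference of 0.26 did not pass (95% interval -1.06 to 1.57, SE 0.64, adjusted p = 0.836 by limma), with 4 of 6 libraries higher, and its sign turned when both hairpin rows were summed (-0.26). miR-196b-5p had a fitted log2 difference of 2.66 (limma, adjusted p = 0.673), a size set by the pseudocount since the scrambled library had 0 reads. The median difference over all 242 tested microRNAs was 0.096. The interval of miR-196a-5p excludes neither a higher nor a lower level with X1 probes. Its summed rows may hold the same reads in both, since the mature sequence is the same and the counting rule is not given. The intervals and p-values of this comparison rest on a single shallow control library that the fit takes to vary like the deeper ones. They should be read as too narrow and too small. In reads simulated with counting error alone and no difference, the fit still made calls here, and more unadjusted p-values under 0.05 than the nominal share. Those reads were drawn at the totals with 1 row per name, and spread between captures was not simulated. Without the eBayes trend the SE of miR-10a-5p was 0.51 in place of 0.31.

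The second comparison sets the ODD against the EVEN probe set, both directed at the same transcript. Of the 4 tested members 0 passed, where 0.413% of all 242 tested microRNAs did (a single name, let-7f-5p), and 0 had an unadjusted limma p under 0.05, where 4.55% did. In 0 of the 4 were the probe sets apart, while 3.31% of all tested microRNAs had every ODD capture below every EVEN capture and 3.72% the opposite. For miR-10a-5p the mean was 14556 ± 925 RPM in ODD and 16407 ± 3958 RPM in EVEN captures (n = 3 each, SD), a log2 difference of -0.15 (limma, 95% interval -0.62 to 0.32, adjusted p = 0.979). The groups overlapped, and without EVEN capture 3 the difference was 0.042. For miR-10b-5p it was 11313 ± 1152 RPM in ODD and 10616 ± 1200 RPM in EVEN captures (n = 3 each, SD), a log2 difference of 0.093 (limma, 95% interval -0.39 to 0.58, adjusted p = 0.981) that was -0.0045 without EVEN capture 3. For miR-196a-5p it was 906 ± 288 RPM in ODD and 1205 ± 46.6 RPM in EVEN captures (n = 3 each, SD). ODD captures 1 and 3 lay below all EVEN libraries and ODD capture 2 between them. The log2 difference was -0.45 (limma, 95% interval -1.44 to 0.54, adjusted p = 0.979), and the exact two-sided permutation test gave p = 0.3, where 3 against 3 cannot go below 0.1. miR-196b-5p had 3 reads in all with each probe set.

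miR-10a-5p, miR-10b-5p and miR-196a-5p kept this order of level in all 7 libraries. miR-10a-5p exceeded miR-10b-5p in 7 of 7 libraries, by 1.43-fold in the geometric mean (exact paired permutation test on log2(RPM + 10), two-sided, p = 0.0156, the smallest 7 pairs allow). That test pools the scrambled library with the others. Within the 6 X1-probe libraries the excess was 1.40-fold (same exact paired permutation test, p = 0.0313). Both p-values concern agreement between captures of a single line, not amounts of the molecules. The ratio of miR-10a-5p to miR-10b-5p was 1.37, 1.35 and 1.16 in ODD captures 1 to 3, 1.25, 1.25 and 2.27 in EVEN captures 1 to 3 and 1.59 in the scrambled library. EVEN capture 3 therefore stood apart, and 5 of the 6 X1-probe ratios lay below the scrambled one. miR-10a and miR-10b are near-identical in mature sequence and the counting rule is not given in the sources used here, so how reads were split between them is uncertain. Their sum was 26446 ± 2167 RPM across the 6 X1-probe libraries (SD), against 36798 RPM with scrambled probes. Fitted as a single feature, the sum had a log2 difference of -0.48 (limma, SE 0.28). Both exceeded miR-196a-5p in every library, miR-10a-5p by 11.9- to 19.3-fold with X1 probes and 26.3-fold with scrambled probes.

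The 2 hairpin rows of miR-196a-5p held unequal reads although the mature sequence is the same in both. The stretches are shown with the mature bases in capitals and 4 hairpin bases on either side, to show where the hairpins part.
MIR196A1: gaauUAGGUAGUUUCAUGUUGUUGGGccug
MIR196A2: ggcuUAGGUAGUUUCAUGUUGUUGGGauug
The hsa-mir-196a-1 row had 4, 27 and 0 reads in ODD captures 1 to 3, 6, 8 and 2 reads in EVEN captures 1 to 3 and 4 reads in the scrambled library. It never exceeded the hsa-mir-196a-2 row and equalled it, at 4 reads, in the scrambled library. Summed over libraries it held 51 reads against 93, or 54.8% of the higher row. Among the 8 names with several hairpins and at least 50 reads in the highest row, the lowest row of each of the others held 93.9% or more of the highest. A 196a-1 row of 458 ± 266 RPM with X1 probes (SD, n = 6) stood against 861 RPM with scrambled probes, so this row lay below the control on average while the 196a-2 row lay above it. miR-196a-3p, the other strand of the MIR196A2 hairpin, had 1 read in ODD capture 2 and none elsewhere.

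**Figure D2:**
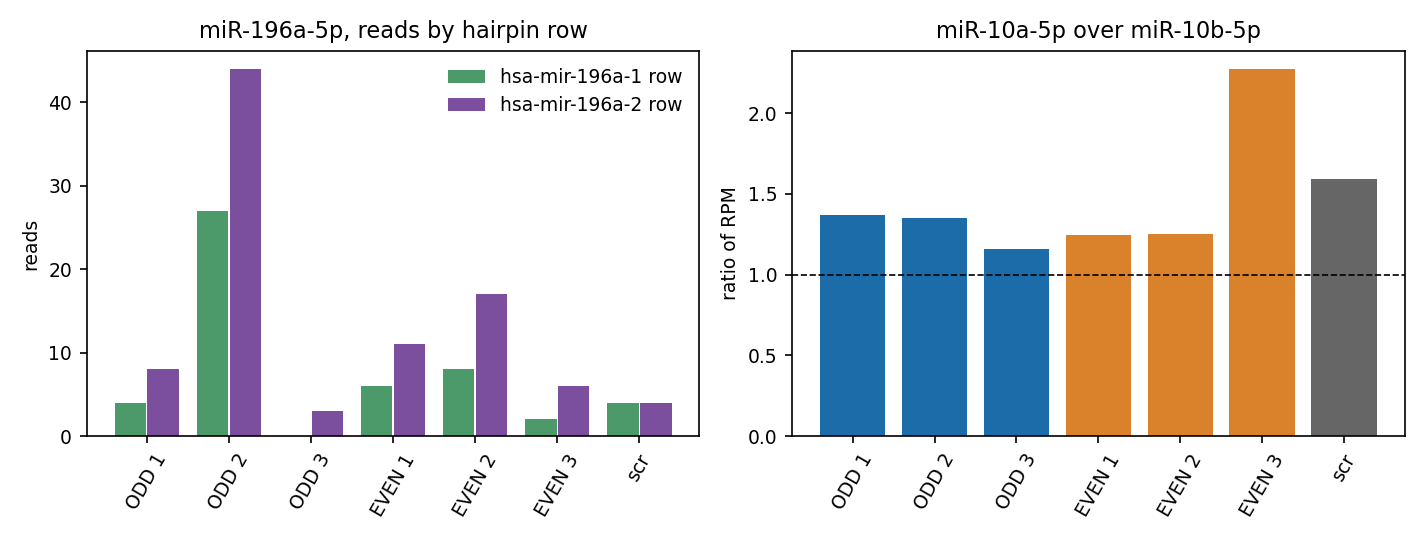
Left, reads of miR-196a-5p in its 2 hairpin rows per library; right, the ratio of miR-10a-5p to miR-10b-5p RPM per library, with a dashed line at 1. The hsa-mir-196a-1 row is lower in all libraries but the scrambled one, where both have 4 reads, and EVEN capture 3 has the highest ratio, 2.27.

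Another HOX-cluster microRNA was measured. miR-615-3p, from a hairpin inside the spans of HOXC4 and HOXC5, had 2, 4 and 0 reads in ODD captures 1 to 3, 0, 3 and 1 reads in EVEN captures 1 to 3 and 0 in the scrambled library, and did not pass in either comparison (limma, adjusted p = 0.673 and 0.982).

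The miR-99, miR-100 and miR-125 microRNAs were taken as the relatives of miR-10 in sequence. The longest unbroken run shared with miR-10a-5p was 11 bases in miR-100-5p and 10 in miR-99a-5p. It was 5 bases in miR-99b-5p and 5 in miR-125b-5p, where it lies at other positions. miR-100-5p, the most abundant of them, averaged 22980 ± 3635 RPM over the 6 X1-probe libraries (SD) and 24317 RPM with scrambled probes, a log2 difference of -0.097 (limma, adjusted p = 0.858). Its X1-probe libraries spread on both sides of the scrambled value, unlike those of both miR-10 members. miR-125b-5p averaged 5604 ± 813 RPM over the 6 X1-probe libraries (SD) and 8823 RPM with scrambled probes, lower in 6 of 6 libraries, at a log2 difference of -0.67 (limma, adjusted p = 0.660). miR-99b-5p and miR-125a-5p had differences of 0.27 and -0.48 (limma, adjusted p = 0.701 and 0.673). Of these 4 tested relatives 0 passed in either direction, with a median difference of -0.29 beside 0.096 over all tested microRNAs. miR-99a-5p had 3 reads in all and was not tested.

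The let-7 family and miR-98-5p summed to 83423 ± 11131 RPM across the 6 X1-probe libraries (SD), against 64343 RPM with scrambled probes. Of these names only let-7a-5p was compared with miR-196a-5p in sequence, and it holds the letters of the miR-196 seed shifted by a base. miR-98-5p averaged 303 RPM with X1 probes and had 0 reads with scrambled probes, which allows up to 646 RPM by the 3-read limit and 794 RPM by the exact interval. The size of its fitted difference from scrambled probes is therefore set by the pseudocount. Of 9 tested members 0 passed against scrambled probes, with a median difference of 0.19 beside 0.096 over all tested microRNAs. The fitted log2 differences from scrambled probes were above 0 for 6 of the 9 and below 0 for 3. That of miR-98-5p could only be positive in the main fit, given its 0 scrambled reads. Apart from it they ran from -0.74 for let-7d-5p to 0.78 for let-7f-5p, with let-7i-5p at 0.64. All of them rest on the single scrambled library. Against EVEN probes 1 of 9 fell with ODD probes, where 0.413% of all tested microRNAs passed; this was let-7f-5p, with averages of 9581 RPM in ODD and 20823 RPM in EVEN captures (limma, log2 difference -1.16, adjusted p = 0.0242), a call that was lost with pseudocount 1, under quantile scaling and with no filter, among other settings. let-7f-5p was also the microRNA whose log2 values over the 7 libraries went most closely with those of miR-196a-5p, among 95 others with a mean of at least 500 RPM (Pearson r = 0.89). The next were miR-27a-3p (0.80) and miR-3605-5p (0.78). For miR-10a-5p the closest were miR-146b-5p (0.87), miR-584-5p (0.85) and miR-125b-5p (0.85), and for miR-10b-5p they were miR-21-3p (0.93), miR-1285-5p (0.80) and miR-103a-3p (0.75). These correlations are descriptions over 7 libraries that share their depth differences and the scrambled library. Between miR-10a-5p and miR-10b-5p the correlation was 0.18.

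**Figure D3:**
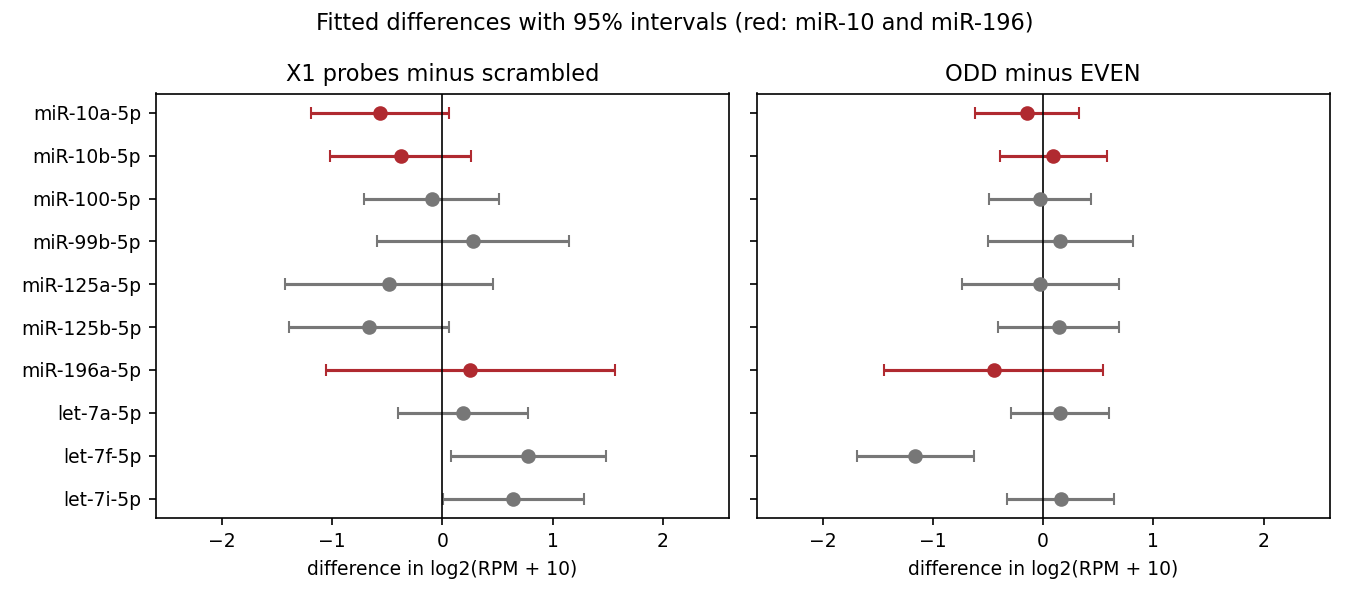
Fitted differences in log2(RPM + 10) with 95% intervals for X1 probes minus scrambled (left) and ODD minus EVEN (right); red marks miR-10a-5p, miR-10b-5p and miR-196a-5p, grey their most abundant sequence relatives. The red intervals all hold 0; miR-196b-5p, with 0 scrambled reads, is left out.

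Ordered by the mean over all 7 libraries, the nearest neighbours of miR-10a-5p were miR-222-3p above it, at 17169 ± 4623 RPM with X1 probes (SD, n = 6), and miR-181b-5p below it, at 16250 ± 3866 RPM. With scrambled probes miR-222-3p was at 23241 RPM, just above miR-10a-5p, and miR-181b-5p at 13557 RPM, below it. In the same mean, miR-10b-5p stood below let-7i-5p, at 12869 ± 1529 RPM with X1 probes and 8177 RPM with scrambled probes, and above miR-221-3p, at 9132 ± 2302 RPM with X1 probes and 9038 RPM with scrambled probes. miR-196a-5p stood, in that mean, between miR-24-3p, at 950 ± 339 RPM with X1 probes and 1506 RPM with scrambled probes, and miR-3687, at 1029 ± 518 RPM with X1 probes and 861 RPM with scrambled probes. These orders do not hold in each group: with X1 probes alone miR-181b-5p lay above miR-10a-5p and miR-196a-5p above both of its neighbours, and with scrambled probes miR-10b-5p lay above let-7i-5p. For all these neighbours the ranges of mean ± SD with X1 probes overlapped that of the member beside them.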

How the data were processed

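Small RNA reads from 7 captures were counted and scaled by the authors, who deposited RPM for 498 rows, each a pair of hairpin and mature name. CASAVA 1.8 and cutadapt 1.2.1 are named per the submitters' processing notes. How reads were aligned and counted, with which annotation and build, is not given in the sources used here. That the deposited values are RPM was read from the values, since each column sums to 1000000, and 100% of values were whole multiples of 1 read (tolerance 1e-06 reads). Each mature name was taken from its highest row. A microRNA was tested where it had at least 10 RPM in at least 3 of 7 libraries, which kept 242 names and 4 of the 5 members. As 10 RPM is below 1 read in every library, this asks for at least 1 read in 3 libraries.

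Differences in log2(RPM + 10) were fitted in R 4.3.3 by limma 3.58.1, a mean per group, eBayes with a trend, two-sided, Benjamini-Hochberg at 0.05 over all tested names. Fold changes on this scale understate the change of low microRNAs. With 1 scrambled library, its spread was assumed equal to that of the other groups (4 residual degrees of freedom). Reads were simulated at the totals with 1 row per name, with counting error alone and no spread between captures. In them the fit gave most changed microRNAs the right sign, but between X1 and scrambled probes it also called unchanged ones beyond the nominal rate. With no difference simulated it still made calls there and none between ODD and EVEN. Intervals on single values are exact Clopper-Pearson 95% intervals, and the limit for 0 reads is 3 reads; both cover counting error only, since no molecular identifiers tell PCR copies apart. Members, lists and tests were chosen with earlier results of these data known. Named microRNAs were the members, the listed relatives and markers, the 3 closest by correlation and the neighbours by level. Sequences and positions are RefSeq's (GRCh38.p14).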

Additional observations from a re-analysis of the deposited data

Results flagged for a closer look

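Among 8 measures checked over the 6 X1-probe libraries, 2 had a library far from the others, both times EVEN capture 3. Its miR-10a-5p level was 20978 RPM, from 100 reads, while the other 5 X1-probe libraries had 14382 ± 696 RPM (SD, n = 5) and the scrambled library 22595 RPM. The gap to the next X1-probe library was 0.75 of the whole range, above Dixon's 95% critical value for 6 samples. The exact 95% interval of that library, 17100 to 25456 RPM, lay above those of 4 of the 5 others. Its ratio of miR-10a-5p to miR-10b-5p was 2.27, against at most 1.37 in the other X1-probe libraries and 1.59 in the scrambled library, with a gap of 0.81 of the range. The 2 measures share the same miR-10a-5p value, and chance flags about 1 in 20 groups. EVEN capture 3 is among the shallower libraries, at 4767 reads, and the part of depth in this was not tested.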

How the results depend on the processing

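No member passed in either comparison under any setting run. Against scrambled probes, miR-10a-5p stayed between -0.66 and -0.37 on the log2 scale over 17 settings (limma, adjusted p 0.218 to 0.759), and miR-10b-5p between -0.44 and -0.33 over 16 (adjusted p 0.514 to 0.759). Leaving out replicate 3 of both probe sets, chosen after seeing the data, gave -0.65 for miR-10a-5p (adjusted p = 0.248, unadjusted p = 0.0371) and -0.36 for miR-10b-5p. Leaving out each X1-probe library in turn gave -0.66 to -0.51 for miR-10a-5p, -0.41 to -0.33 for miR-10b-5p, 0.13 to 0.32 for miR-196a-5p and 1.87 to 3.35 for miR-196b-5p. miR-10a-5p had an unadjusted p of 0.0272 without EVEN replicate 3. Quantile scaling gave 0.53 for miR-196a-5p and 1.17 for miR-196b-5p, and the replicate block gave 5.06 for miR-196b-5p. The positive sign for miR-196b-5p follows from its 0 reads in the scrambled library. The sign of miR-196a-5p turned when both hairpin rows were summed (-0.26), where the scrambled library holds 4 reads in each row. That sum may count the same reads in both rows, so it is not a fuller measure of miR-196a-5p. Between ODD and EVEN, leaving out a library gave -0.24 to 0.042 for miR-10a-5p, -0.0045 to 0.17 for miR-10b-5p, -0.70 to -0.33 for miR-196a-5p and -1.82 to 1.01 for miR-196b-5p, which rests on 6 reads. The 2 calls against scrambled probes over all microRNAs became 12 with no filter, 1 under quantile scaling, 0 with the replicate block on the description number (where miR-10a-5p was at -0.38 and miR-10b-5p at -0.41) and 2 to 3 when a library was left out. The single ODD against EVEN call became 0 under pseudocount 1, with no filter, at a mean of at least 100 RPM, under quantile scaling, with RPM over 1 row per name and with the replicate block, 2 with all hairpin rows, 3 without the eBayes trend and 0 to 3 when a library was left out; the cause was not tested. Deviations of ODD and EVEN captures from their group means showed no pairing by number, with correlations of -0.044, 0.072 and 0.019 for replicates 1, 2 and 3. With 3 captures per probe set and few reads for many names, this check cannot exclude a pairing. The median of all microRNAs against scrambled probes was 0.50 with no filter and -0.080 at a mean of at least 100 RPM. The scrambled library, the only one of its kind, cannot be left out. The 2 planned count tests on recovered reads were not run. miR-196a-5p rests on 3 to 44 reads per library.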
